A study of Mus musculus with 10 samples.

Results

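Mucins are large glycoproteins whose repeat-rich backbones carry dense O-linked sugars. Gel-forming mucins are secreted by goblet and other mucous cells and polymerize into mucus, whereas membrane mucins stay anchored to the cell surface, mostly on epithelia, and can signal through their cytoplasmic tails. A sarcoma, a tumor of mesenchymal origin, is not a usual site of gel-forming mucin expression. The 10 mouse mucin genes described here were the gel-forming Muc5ac, Muc5b, Muc2 and Muc6 and the membrane or cell surface mucins Muc1, Muc4, Muc13, Muc15, Muc16 and Muc20. They were taken from a table of 56750 features by gene symbol, and all 10 were found. They were selected on their CPM in the dFLEx and KP tumors and the log2 fold change between them, the values given below, so the differences of its members between groups are descriptions and not tests.

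Bulk RNA-seq had been performed on 5 mouse sarcomas. The 3 dFLEx tumors (170019, 170024 and 170025) came from dFLEx CDS +/- mice, which are heterozygous for a CIC::DUX4 fusion with an HA tag, knocked into Rosa26 under the ubiquitous CAG promoter and switched on only after both Cre and FLPE act. Per the study's methods, plasmids expressing the recombinases were electroporated into hind limb muscle, so the fusion was expressed in the cells that took them up and in their progeny, in mice with an intact immune system. The 2 KP tumors (3800 and 3802) were sarcomas of the KP model, whose genotype includes p53fl/fl, which gives loss of p53 once Cre acts. The groups therefore differed in several alleles at the same time, and the labels gave no age, sex or treatment. Each tumor's RNA had been divided into duplicate libraries, which were summed. Of the 10 labelled libraries 9 were in the table, and for 3802 only the first was analysed here.

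Totals ran from 20503474 to 82138251 counts per tumor. KP tumor 3802, the tumor with the lowest total, stood apart: 1545 olfactory and vomeronasal receptor genes, which serve as a gauge of background because muscle and sarcoma should not use them, summed to 0.107 CPM (counts scaled to a common library size, with TMM factors) per kb of exonic sequence there, against 0.00603 in 3800 and between 0.00278 and 0.0239 in the dFLEx tumors. Without the 10 receptor genes with the most counts, the level was 0.00186 in 3800, 0.102 in 3802 and between 0.00193 and 0.02275 in the dFLEx tumors. Multiples of the receptor level given below use all 1545 genes. Without those 10 genes they would be higher, most of all in 3800. The labels were checked against the transgene. Counts of the CIC_DUX4 feature were 4238, 11623 and 33600 counts in the 3 dFLEx tumors, with 0 in 3800 and 6 in 3802. The HA-tag feature had 128, 325 and 1388 counts in the dFLEx tumors and 0 in both KP tumors, where 3 counts would have been 0.0403 and 0.122 CPM.

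Repeat words and promoters of mucin genes are shown before the values. The repeats bear on how the counts could be read, and the promoters do not. Muc5ac (ENSMUSG00000037974; GRCm39, chromosome 7, 141342709 to 141372968, plus strand) has 10752 exonic bases in 49 exons, and the large central exon, exon 31, encodes tandem repeats. The commonest 24-base word of its transcript occurred 24 times, first at chr7:141362391-141362414 in exon 31. That of Muc2 occurred 29 times, first in exon 29 at chr7:141291451-141291474, and that of Muc6 occurred 18 times, first in exon 31 on the minus strand at chr7:141226023-141226046.
Muc5ac: accagctcacccaatacaggaaag
Muc2: acctcaccaaccatctcaacaacc
Muc6: tcctcagactccacgcaccacaca

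Because reads with several alignments were not counted, such repeats lower the counts of these genes. Of all 150-base windows, the length of a read, 15.9% of those in the Muc5ac transcript recurred exactly within it. The share was 39.2% for Muc6, 13.4% for Muc5b and 6.54% for Muc2, and it was 0% for Muc1, Muc15 and Muc20. The repeats are a property of the annotation and the same for every tumor, so they bear on the level of one gene against another. Muc4 and Muc20 lie on opposite strands of chromosome 16 and share 381 exonic bases (9.46% of Muc20 and 2.99% of Muc4). Reads over these bases were not counted for either gene, and the counts of the pair are uncertain for that reason.

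Promoters of 7 mucin genes were listed in the RefSeq set used here (GRCm38.p6): Muc2, Muc6, Muc1, Muc4, Muc13, Muc16 and Muc20. That set had none for Muc5ac, Muc5b and Muc15, so what follows on promoters does not cover these genes. The 250 bases before the start are printed for Muc2, the second gel-forming gene to stand higher in the dFLEx tumors, for its neighbour Muc6, which did not, and for Muc1, the membrane mucin with the highest level per kb. Capitals mark TATAA, the core of a TATA box, on either strand. Muc2 is at chr7:141690090-141690339 (plus strand), Muc6 at chr7:141655394-141655643 (minus strand) and Muc1 at chr3:89228806-89229055 (plus strand).
Muc2: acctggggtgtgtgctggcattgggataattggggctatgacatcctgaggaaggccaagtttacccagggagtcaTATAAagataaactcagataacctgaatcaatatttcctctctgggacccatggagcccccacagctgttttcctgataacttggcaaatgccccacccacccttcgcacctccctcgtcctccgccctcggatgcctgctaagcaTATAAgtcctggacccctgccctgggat
Muc6: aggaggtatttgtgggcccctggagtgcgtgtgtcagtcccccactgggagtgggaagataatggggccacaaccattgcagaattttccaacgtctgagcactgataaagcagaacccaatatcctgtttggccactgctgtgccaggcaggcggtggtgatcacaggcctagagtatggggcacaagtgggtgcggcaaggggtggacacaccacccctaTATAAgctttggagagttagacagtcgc
Muc1: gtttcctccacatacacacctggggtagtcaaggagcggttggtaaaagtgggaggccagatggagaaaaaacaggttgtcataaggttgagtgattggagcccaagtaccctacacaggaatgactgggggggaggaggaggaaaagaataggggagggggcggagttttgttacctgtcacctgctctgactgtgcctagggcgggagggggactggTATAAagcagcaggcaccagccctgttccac

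TATAA began 28 bases before the start in both Muc2 and Muc6 and 31 bases before it in Muc1, and Muc2 held another copy 174 bases before its start. On either strand, it was present in the promoters of 4 of these 7 genes (Muc4 was the other) and in 22.8% of all 32851 promoters of the same length. The octamers bound by CIC (TGAATGAA, TGAATGGA, TCAATGAA and TCAATGGA, both strands) were in 3.19% of all promoters and in 0 of the 8 listed for these mucin genes, which says only that these letters are not in these windows.

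Muc5ac, the main gel-forming mucin of the stomach surface and of airway goblet cells, was by far the most abundant member in the dFLEx tumors. It had 102703, 138116 and 458117 counts in 170019, 170024 and 170025, or 2555, 2395 and 5771 CPM, and 65 and 46 counts in 3800 and 3802, or 0.873 and 1.87 CPM. Every dFLEx tumor lay above every KP tumor, by at least 1281-fold, and 170025 was the highest. The group means were 3574 ± 1905 CPM (SD, n = 3) and 1.37 ± 0.704 CPM (SD, n = 2), and the log2 fold change, 11.36 (SE 1.06), was the fifth largest of the 24743 genes tested.

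Duplicates of a tumor lay close together, as the plot by library shows. On library totals, Muc5ac had 2146 and 2183 CPM in the libraries of 170019, 2266 and 2299 in those of 170024 and 5673 and 5454 in those of 170025. The duplicates of 3800 had 0.960 and 0.903 CPM. The spread among dFLEx tumors was thus a difference between tumors and not between libraries, with 2.41-fold between the highest and the lowest tumor. Per kb, Muc5ac exceeded the silent receptors at least 9921-fold in each dFLEx tumor, 13.5-fold in 3800 and 1.63-fold in 3802, where it was near background. Of the 15274 genes that averaged 1 CPM or more, 51% had a smaller range among the 3 dFLEx tumors than Muc5ac.

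**Figure D1:**
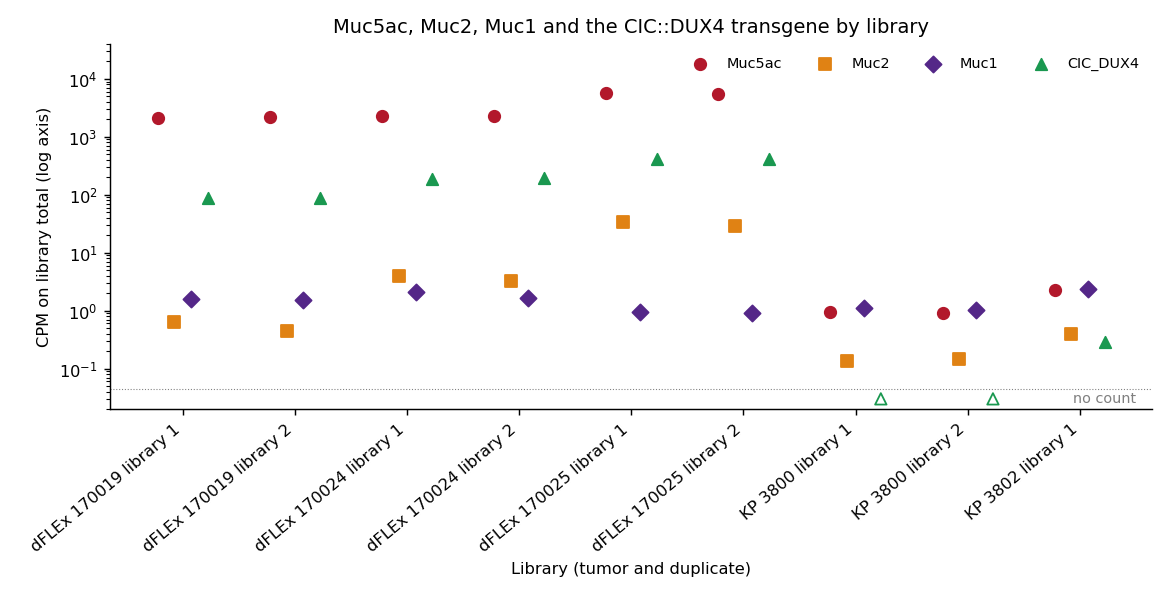
CPM on the library total (log axis) of Muc5ac, Muc2, Muc1 and the CIC_DUX4 transgene feature in each of the 9 libraries; open symbols mark features with no count. Muc5ac lay between 2146 and 5673 CPM in the 6 dFLEx libraries and at or below 2.24 CPM in the 3 KP libraries, while Muc1 overlapped.

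Among all features of a tumor ranked by CPM, Muc5ac was number 59 in 170019, 38 in 170024 and 5 in 170025, against 14316 in 3800 and 14064 in 3802. Per kb of exonic sequence, which allows for its long transcript, it ranked 341, 284 and 60 among 21630 protein-coding genes in the dFLEx tumors. It took 0.216% of all counts in 170019 (Wilson 95% interval 0.215 to 0.218), 0.228% in 170024 (0.227 to 0.229) and 0.558% in 170025 (0.556 to 0.559). In the KP tumors its share was 9.27e-05% in 3800 (7.274e-05 to 0.0001181) and 0.0002244% in 3802 (0.0001682 to 0.0002992). These and the following Wilson intervals cover counting error of reads only. They treat the mates of a pair as separate counts, so they are narrower than intervals on pairs would be.

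The 10 mucin genes together had 102869, 138568 and 460938 counts in the dFLEx tumors and 201 and 239 in the KP tumors. Muc5ac made up 99.8%, 99.7% and 99.4% of them in 170019, 170024 and 170025 (all Wilson 95% limits between 99.37% and 99.86%), against 32.3% (26.26 to 39.08) in 3800 and 19.2% (14.75 to 24.72) in 3802. The counts of these 10 genes in the dFLEx tumors were therefore almost entirely those of 1 gene, and their large sum did not describe the family.

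Muc2, the gel-forming mucin of intestinal goblet cells (ENSMUSG00000025515), was the only other member whose groups did not overlap. It had 26, 218 and 2637 counts in the dFLEx tumors, or 0.647, 3.78 and 33.2 CPM, and 10 and 8 counts in the KP tumors, or 0.134 and 0.325 CPM. The dFLEx tumors spanned a 51.4-fold range, with 170019 only just above 3802 and 170025 far above all others, and 99.8% of the 15274 genes that averaged 1 CPM or more had a smaller range among these tumors. The log2 fold change was 5.83 (SE 1.80), and it was 3.27 without 170025. Per kb, Muc2 stood at 0.0196%, 0.122% and 0.445% of the Muc5ac level in 170019, 170024 and 170025.

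Duplicates again gave the same order of tumors for Muc2, with 0.646 and 0.441 CPM on library totals in 170019, 3.92 and 3.21 in 170024 and 34.2 and 29.4 in 170025. In 170019 its level per kb was 1.94 times that of the silent receptors of the same tumor, which places it near background there, against 18.0 times in 170024 and 857 times in 170025. In the KP tumors it was 1.60 and 0.219 times the receptor level. The multiples of the dFLEx tumors also depend on the receptor level itself. That was 0.0239, 0.0151 and 0.00278 CPM per kb in 170019, 170024 and 170025.

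The gel-forming Muc5b, a major airway mucin, and Muc6, the mucin of gastric glands, were near the limit of detection. Muc5b had 4, 14 and 8 counts in the dFLEx tumors and 1 and 4 in the KP tumors. Muc6 had 9, 24 and 29 counts in the dFLEx tumors and 22 and 32 in the KP tumors. For both genes the groups overlapped, with log2 fold changes of 0.82 (SE 1.89) and -1.23 (SE 1.21). That of Muc5b was 3.30 without 3802 and 0.02 without 3800. The level per kb of Muc5b was between 0.102 and 2.42 times that of the silent receptors, and that of Muc6 between 0.600 and 8.42 times.

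Muc1, a widely expressed membrane mucin (ENSMUSG00000042784), had 75, 116 and 75 counts in the dFLEx tumors, or 1.87, 2.01 and 0.945 CPM, and 74 and 49 counts in the KP tumors, or 0.994 and 1.99 CPM. The groups overlapped fully, since 170025 and 3800 were low and the other tumors were high, and the log2 fold change was 0.11 (SE 0.84). Its level per kb was between 0.403 and 0.857 CPM and exceeded that of the silent receptors 7.96-fold in 3802 and between 33.2-fold and 145-fold in the other tumors. The largest multiple was that of 170025, where both Muc1 and the receptors had their lowest level. In both KP tumors Muc1 had the highest level per kb of the 10 genes, and in 170019 and 170024 it was second to Muc5ac.

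The other membrane mucins were lower. Muc4, a large epithelial mucin that partners with ErbB2, had 12, 38 and 54 counts in the dFLEx tumors and 12 and 10 in the KP tumors, and its log2 fold change was 0.96 (SE 1.29). Muc13, an intestinal membrane mucin, had 10, 24 and 12 against 8 and 38 counts (log2 fold change -1.58, SE 1.40), and Muc16, which carries the CA125 antigen, had 14, 13 and 2 against 6 and 19 (-1.08, SE 1.68). Muc15 had 10 counts in 170019, 9 in 3802 and 0 in the other tumors. Muc20 had 6, 5 and 4 against 3 and 24 counts, too few to be tested.

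For each of Muc6, Muc13, Muc15, Muc16 and Muc20, the highest CPM was in 3802, the tumor with the highest receptor background. The level of these genes per kb there was between 0.275 times (Muc16) and 4.77 times (Muc13) that of the receptors. Without 3802 the log2 fold change of Muc13 went from -1.58 to 1.34, that of Muc16 from -1.08 to 1.29 and that of Muc6 from -1.23 to 0.20. The part of background reads in the values of these 5 genes was not tested.

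**Figure D2:**
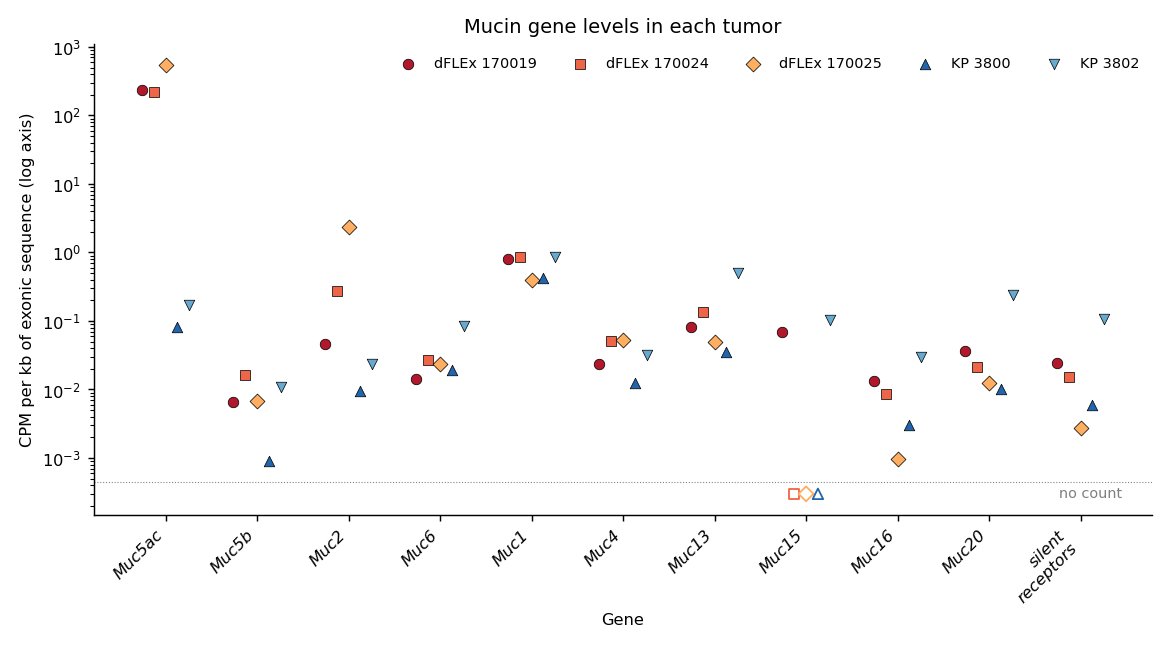
Level of the 10 mucin genes in each tumor in CPM per kb of exonic sequence (log axis), with the summed level of 1545 silent receptor genes at the right; open symbols mark genes with no count. Muc5ac lay between 223 and 537 in the dFLEx tumors, Muc2 spread over the dFLEx tumors, and the other members apart from Muc1 were at or below 0.508 in every tumor.

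By the mean level per kb in the dFLEx tumors, the order began with Muc5ac, which was 332 CPM per kb and whose range, 223 to 537, was separate from that of every other member. Muc2 (0.0465 to 2.39) and Muc1 (0.403 to 0.857) followed, and their ranges overlapped, so that their order was set by 170025 alone. Muc13 (0.0498 to 0.137) lay below Muc1 in each dFLEx tumor. Muc4, Muc20, Muc15, Muc6, Muc5b and Muc16 came last, between 0 and 0.0697 CPM per kb, and each overlapped with its neighbours in this order.

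Of the 10 members, 9 passed the filter on low counts and 1 of them, Muc5ac, passed an adjusted p of 0.05 (edgeR), as did 0.101% of all 24743 genes tested in the direction of dFLEx and 0.0808% in that of KP. Every dFLEx tumor lay above every KP tumor for 2 of the 9 tested members and for 13.7% of all genes tested, and below for 0 members and 11.7% of all genes. The median log2 fold change of the 9 was 0.11, against -0.18 over all genes tested. These counts rest on the contrast for which the family was selected, so nothing is read from them. The call of Muc5ac did not hold when some tumors were left out. The log2 fold change was 11.48 without 170019, 11.53 without 170024 and 11.07 without 3800, and the gene was then no longer called, whereas the call held without 170025 (10.81) and without 3802 (12.01).

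Because bulk RNA mixes cells, more cells that express a gene and more RNA per cell cannot be told apart in any of these values. The transgene gave levels to set beside those of Muc5ac. CIC_DUX4 had 105, 202 and 423 CPM in 170019, 170024 and 170025 and 0 and 0.244 CPM in 3800 and 3802, with a log2 fold change of 11.31 (SE 1.84). Tumor 170025 was the highest for the transgene, for Muc5ac and for Muc2, but 170024 had 1.91 times the transgene of 170019 and 0.937 times its Muc5ac. Per kb, Muc5ac was 11.3, 5.52 and 6.33 times the transgene in the 3 dFLEx tumors.

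To find the genes whose levels followed Muc5ac most closely, the centred log2 CPM of each of 15273 genes that averaged 1 CPM or more was compared with that of Muc5ac over the 5 tumors. The smallest root mean square difference was that of Vgf, a secreted neuropeptide precursor, at 0.410 log2 units, followed by Cytl1, a small secreted cytokine-like protein, at 0.568 and Spx, the precursor of the peptide spexin, at 0.672. CIC_DUX4 itself was the fourth at 0.701, and the ETS factor Elf3 was the fifth at 1.05. Vgf had 35420, 41940 and 44660 CPM in the dFLEx tumors and 8.65 and 23.1 in the KP tumors, a narrower spread among the dFLEx tumors (1.26-fold) than that of Muc5ac. The 5 genes shared a step of over 10 log2 units between groups, which sets most of this likeness.

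Muc1 followed other genes. Its nearest profiles were those of Msrb1, a methionine sulfoxide reductase, at 0.0501 log2 units, of Lemd2, a protein of the inner nuclear membrane, at 0.0959 and of the immediate early gene Ier2 at 0.0983, and then the unnamed loci C920021L13Rik at 0.0990 and Gm5525 at 0.108. All 5 had the low values in 170025 and 3800 that Muc1 had, and their log2 fold changes lay between 0.08 and 0.18. The silent receptors divided the tumors in the same way. The share of them with a count was 12.4% in 170025 and 10.6% in 3800, against 46.5%, 48.7% and 64.3% in 170019, 170024 and 3802. The part of such a difference between libraries in the likeness to Muc1 was not tested.

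The gel-forming genes Muc6, Muc2, Muc5ac and Muc5b form a cluster of 213 kb on chromosome 7 (GRCm39, 141213373 to 141426821), with Muc6 on the minus strand and the others on the plus strand. Muc5ac begins 34.3 kb after the end of Muc2 and ends 19.8 kb before Muc5b. Within the cluster the log2 fold change went from -1.23 in Muc6 to 5.83 in Muc2, 11.36 in Muc5ac and 0.82 in Muc5b. Muc5b, the gene nearest to Muc5ac, thus had overlapping groups at counts near background. Of 44 other protein-coding genes within 500 kb on either side, 29 were tested and 0 passed the adjusted threshold with edgeR, against 4 with DESeq2. DESeq2 called 1396 of all 22335 genes it tested, the share to set beside this and every later DESeq2 count. At an unadjusted p under 0.05 (edgeR), 7 of the 29 were higher and 1 lower in the dFLEx tumors, against 5.65% and 4.93% of all genes tested. Their median log2 fold change was 0.90, against -0.18 over all genes. Every dFLEx tumor lay above every KP tumor for 10 of the 29 and below for 1, against 13.7% and 11.7% of all genes tested.

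The nearest flanking genes were expressed in both groups. Ap2a2, a subunit of the AP-2 clathrin adaptor on the Muc6 side, had 95.9, 119 and 134 CPM in the dFLEx tumors and 84.1 and 144 in the KP tumors, and its log2 fold change was 0.03 (SE 0.55). Tollip, an inhibitor of Toll-like receptor signalling on the Muc5b side, had 130, 98.5 and 134 against 46.1 and 51.5 CPM, and its log2 fold change was 1.31 (SE 0.55) at an adjusted p of 0.451 (edgeR). The dFLEx tumors were all higher for Tollip, and the groups overlapped for Ap2a2. The extremes of the flanks were Drd4, a dopamine receptor, at 5.44 (SE 1.37, adjusted p 0.186) and Irf7, an interferon regulatory factor, at -3.65 (SE 0.73, adjusted p 0.110), both at the far end of the Muc6 side. That of Drd4 was 9.80 without 3800, since 3802 has no Drd4 count and the fitted value then depends on the prior count, and that of Irf7 was -2.31 without 3802. The Krtap5 keratin-associated genes beyond Dusp8 had no or almost no counts in any tumor.

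**Figure D3:**
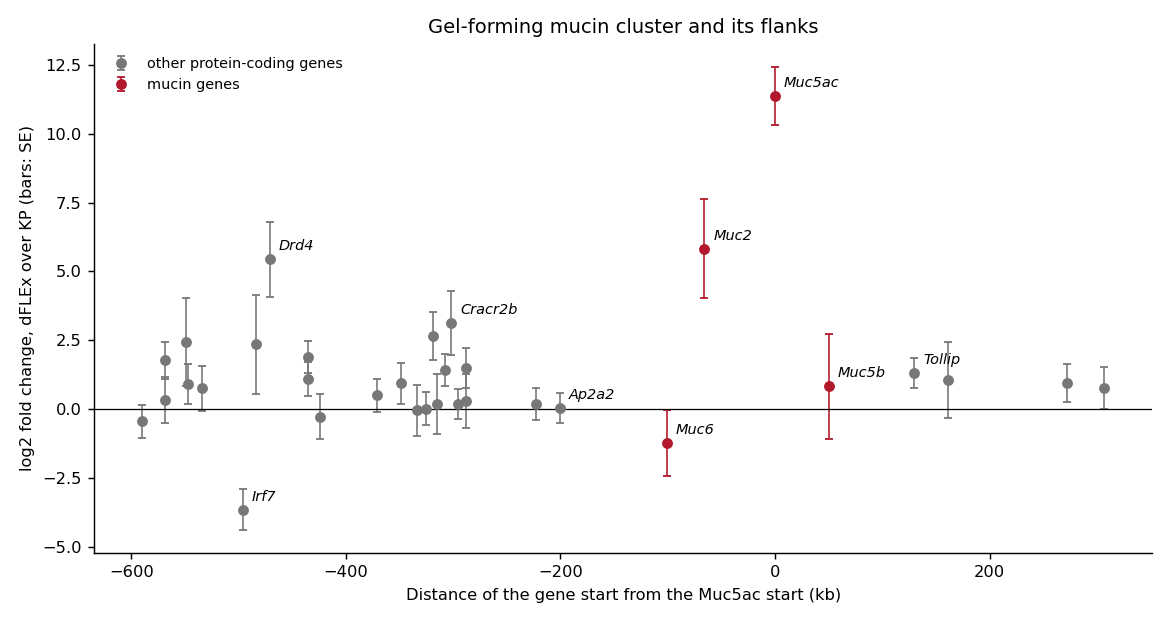
Log2 fold change (dFLEx over KP, bars SE) of the tested protein-coding genes in and around the gel-forming mucin cluster against the distance of their start from that of Muc5ac in kb. Muc5ac stood apart at 11.36, whereas Muc2 at 5.83 (3.27 without 170025) overlapped within its error with Drd4 at 5.44, the highest of the flanking genes.

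O-linked glycosylation of mucins begins in the Golgi with GalNAc transferases, which attach the first sugar to serine or threonine. Of 19 such Galnt genes, 18 were tested and 0 passed the adjusted threshold with edgeR (2 did with DESeq2), while 3 were higher and 1 lower at an unadjusted p under 0.05 (5.65% and 4.93% of all genes tested). The dFLEx tumors lay wholly above the KP tumors for 6 of them and wholly below for 3 (13.7% and 11.7% of all genes tested). The median log2 fold change was 0.49. Galnt1 and Galnt2, the broadly expressed members, were high in both groups, with 55.5, 63.2 and 156 CPM for Galnt1 in the dFLEx tumors and 266 and 48.6 in the KP tumors. Galnt18 had 19.3, 23.1 and 29.5 against 2.96 and 4.23 CPM (log2 fold change 2.74, SE 0.65, adjusted p 0.159, edgeR). Galnt12 had 5.75, 6.14 and 10.1 against 2.02 and 1.30 CPM (2.14, SE 0.69, adjusted p 0.298), and Galnt9 had 3.56, 4.63 and 2.83 against 0 and 0.325 CPM (4.66, SE 1.59, adjusted p 0.326). Galnt7, which prefers substrates that already carry a GalNAc, had 8.58, 9.83 and 19.9 against 56.7 and 25.6 CPM (-1.69, SE 0.66, adjusted p 0.415). For these 4 genes the groups did not overlap, but no difference passed the test over all 5 tumors. Without 3802, where Galnt9 had 8 counts, no Galnt9 count was left in the KP group, and the gene was called at an adjusted p of 0.0245 (edgeR) with a fitted log2 fold change of 10.86 that depends on the prior count. The log2 fold change of Galnt7 was -0.84 without 3800.

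The enzymes that build the core structures and cap them gave both directions. Of 17 genes, 14 were tested, 0 passed the adjusted threshold with edgeR and 4 did with DESeq2, 3 were higher and 1 lower at an unadjusted p under 0.05 (5.65% and 4.93% of all genes tested), and the median log2 fold change was -0.35. The sialyltransferases St6galnac2 and St6galnac3, which cap short O-glycans, differed by 3.71 (SE 0.75, adjusted p 0.112, edgeR) on the log2 scale and by 4.27 (SE 0.96, adjusted p 0.137). St6galnac2 had 9.40, 7.51 and 12.6 CPM in the dFLEx tumors against 0.954 and 0.528 CPM, and St6galnac3 had 13.3, 11.8 and 47.4 against 0.927 and 1.58 CPM. A shorter annotated feature with the same symbol overlaps St6galnac2, and reads lying over both were not counted. B3gnt3, which extends core 1 chains, had 9.73, 16.8 and 40.4 against 1.28 and 0.975 CPM (4.30, SE 0.90, adjusted p 0.121).

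Gcnt1, the core 2 branching enzyme, went the other way, with 2.59, 2.39 and 5.55 CPM in the dFLEx tumors and 42.7 and 10.8 in the KP tumors (-2.93, SE 0.78, adjusted p 0.204, edgeR), and the log2 fold change was -1.44 without 3800. C1galt1, the core 1 synthase, and its chaperone C1galt1c1 were present in every tumor, with 10.2 to 58.2 and 14.7 to 26.8 CPM, and their groups overlapped. B3gnt6, the core 3 synthase of the gut, had 0 counts in all 5 tumors, Fut2, which fucosylates gastric mucins, was at or below 0.821 CPM in the dFLEx tumors, and A4gnt, the enzyme of gastric gland mucin, was at or below 0.323 CPM in them. Enzymes of the initial and core steps were therefore detected in the dFLEx tumors, whereas these 3 enzymes typical of gut or stomach mucus were at low levels or without counts.

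Genes of proteins that accompany mucins in mucous cells were mostly at low RNA levels. Of 19 such genes, 13 were below 1 CPM in every tumor and 2 (Tff1 and Tff3, the trefoil peptides of stomach and intestine) had no count in any. Of the 11 tested, 0 passed with edgeR and 1 with DESeq2, 1 was higher and 1 lower at an unadjusted p under 0.05 (5.65% and 4.93% of all genes tested), and the median log2 fold change was -0.25. Some low genes lay well above the silent receptors. Per kb, Gkn1, a gastrokine of the stomach surface, was 181 times the receptor level in 170025 and 23.3 times in 170019. Its CPM were 0.630 in 170025 and 0.6965 in 170019, so the larger multiple came with the lower receptor level of 170025. Zg16, a goblet cell lectin, was 40.5 and 54.9 times the receptor level in 170019 and 170024. Scgb3a1 was 12.2, 82.7 and 121 times the receptor level in 170019, 170024 and 170025, at 0.174, 0.746 and 0.2015 CPM. Agr2, a disulfide isomerase needed for mucin folding in goblet cells, had 0.0995, 0.156 and 0.113 CPM in the dFLEx tumors, and Clca1, a goblet cell protease, had 0.0498, 0.0694 and 0. The summed list had 32.2, 25.4 and 8.94 CPM in the dFLEx tumors and 28.9 and 15.4 in the KP tumors. Most of that was Bcas1, with 26.9, 21.3 and 7.43 against 26.6 and 1.54 CPM. The tumor with the most Muc5ac, 170025, had the lowest sum and also the lowest receptor level.

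Among 17 transcription factors known to act on mucin genes in stomach, gut or airway, 12 were tested and 1 passed (0.101% of all genes tested were called higher): Elf3, an epithelial ETS factor (GRCm39, chromosome 1, 135181313 to 135186306, minus strand). Elf3 had 218, 207 and 161 CPM in the dFLEx tumors and 0.215 and 0.122 CPM in the KP tumors, from 16 and 3 counts. The groups were far apart, the dFLEx tumors differed by 1.35-fold only, and the order among them was the reverse of that of the transgene. The log2 fold change was 10.10 (SE 0.87) with an adjusted p of 0.0245 (edgeR), and this p was 0.113 without 170019 and 0.118 without 170024, at log2 fold changes of 9.99 and 10.09. In 3802 its level per kb was 0.516 times that of the silent receptors.

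Several factors known from goblet cells were at low levels. Spdef had 0.274, 0.780 and 0.101 CPM in the dFLEx tumors and 0.0537 and 1.02 in the KP tumors, Foxa2 had no count, and Foxa1, Atoh1 and Hnf4a stayed at or below 0.174 CPM in the dFLEx tumors. Klf4, a factor of goblet cell differentiation that other cells also use, was well above background in every tumor, with 12.7, 24.2 and 34.04 against 50.5 and 22.9 CPM, and its groups overlapped. Sox2, a factor of stomach and airway epithelium and of stem cells, had 13.6, 0.832 and 2.34 against 0.0537 and 0.244 CPM (log2 fold change 5.34, SE 1.57, adjusted p 0.251, edgeR), and the log2 fold change was 3.37 without 170019. Creb3l1, a regulator of secretory capacity, had 33.4, 75.2 and 167 against 30.5 and 6.87 CPM (2.30, SE 0.96, adjusted p 0.448), and the log2 fold change was 3.92 without 3800 and 1.54 without 170025. In Creb3l1 the lowest dFLEx tumor was barely above 3800. At an unadjusted p under 0.05, 3 of the 12 were higher and 0 lower (edgeR; 5.65% and 4.93% of all genes tested), the median log2 fold change was -0.40, and DESeq2 called 2.

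**Figure D4:**
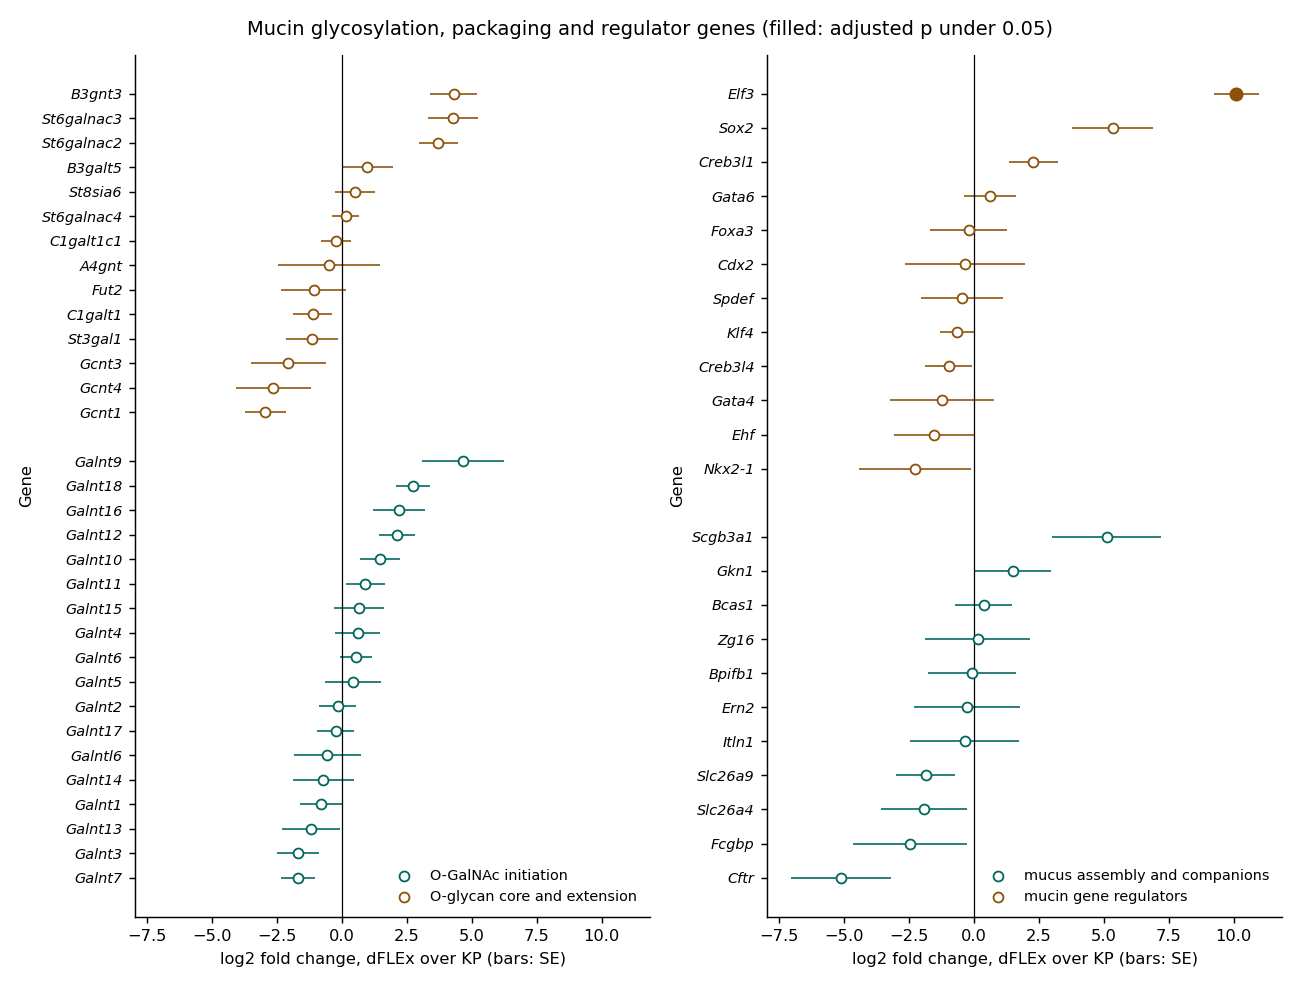
Log2 fold change (dFLEx over KP, bars SE) of the tested genes of mucin glycosylation on the left and of mucus companions and mucin gene regulators on the right; the filled point is the only gene with an adjusted p under 0.05. Elf3 at 10.10 stood apart, St6galnac3, St6galnac2 and B3gnt3 lay between 3.71 and 4.30, and Gcnt1 lay at -2.93.

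Mucins are markers of epithelium, so epithelial genes were read in the same tumors. The 18 epithelial markers summed to 24.2, 12.2 and 7.46 CPM in 170019, 170024 and 170025 and to 346 and 224 CPM in 3800 and 3802. The sum was thus lowest where Muc5ac was highest. The level of the silent receptors fell in the same order among the dFLEx tumors, with 0.0239, 0.0151 and 0.00278 CPM per kb in 170019, 170024 and 170025. The part of background reads in the marker sum was not tested. Of the KP sums, 322 and 190 CPM came from the keratins Krt8 and Krt18. The other 16 markers summed to 21.2, 9.81 and 6.44 CPM in the dFLEx tumors and to 23.9 and 34.8 in the KP tumors. None of the 18 was at 0 in all tumors, and 3 were below 1 CPM in each. Of the 16 tested, 0 were called higher and 2 lower in the dFLEx tumors (0.101% and 0.0808% of all genes tested). At an unadjusted p under 0.05 (edgeR), 1 was higher and 3 lower, against 5.65% and 4.93% of all genes tested. DESeq2 called 3, against 1396 of all 22335 genes it tested. The median log2 fold change was -1.44. The 2 called lower by edgeR were Krt18 and Krt8. Krt18 had 1.57, 1.53 and 0.605 against 212 and 151 CPM (-7.20, SE 0.75, adjusted p 0.0335, edgeR). Krt8 had 1.34, 0.902 and 0.416 against 110 and 39.0 CPM (-6.40, SE 0.85, adjusted p 0.0480, edgeR). Both lost the call without 170019, without 170024 or without 170025, and Krt8 also without 3800, with log2 fold changes no weaker than -5.31. Every dFLEx tumor lay above every KP tumor in 3 of the tested markers and below in 5, against 13.7% and 11.7% of all genes tested. The 5 were Krt8, Krt18, Cdh1, Epcam and Cldn4. The 3 were Cldn3, Esrp2 and Krt7, and none had an adjusted p under 0.05 (edgeR). Their log2 fold changes were 4.01 (SE 1.55), 2.03 (SE 1.91) and 1.51 (SE 1.15). Epcam, an epithelial adhesion molecule, had 1.54, 1.51 and 0.302 CPM in the dFLEx tumors, against 3.75 and 1.91 in the KP tumors. Cdh1, E-cadherin, had 0.896, 1.37 and 0.454 CPM in the dFLEx tumors, against 12.4 and 4.75 in the KP tumors.

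Marker sums of other cells also differed between the groups, without overlap for endothelial cells and macrophages. The 8 endothelial markers summed to between 450 and 631 CPM in the dFLEx tumors and between 166 and 202 in the KP tumors. The 8 macrophage markers summed to between 678 and 859 CPM in the dFLEx tumors and to 1480 and 4490 in 3800 and 3802, and the 10 T and B cell markers to between 8.50 and 13.6 CPM, against 13.5 and 85.9. No marker of these 3 lists was called by edgeR. At an unadjusted p under 0.05 (edgeR), 1 of the 8 endothelial markers was higher and 0 were lower. Of the 8 macrophage and the 10 T and B cell markers, 4 each were lower and 0 higher. The shares of all genes tested were 5.65% higher and 4.93% lower. Gene by gene, every dFLEx tumor lay above every KP tumor for 2 of the 8 endothelial markers. Every dFLEx tumor lay below for 5 of the 8 macrophage and 4 of the 10 T and B cell markers. The shares of all genes tested were 13.7% above and 11.7% below. For the other markers of these lists the groups overlapped. DESeq2 called 1 endothelial, 1 T and B cell and 0 macrophage markers, against 1396 of all 22335 genes it tested. None of these lists had a member without counts in every tumor. The part of cell composition in the mucin values was not tested.

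**Figure D5:**
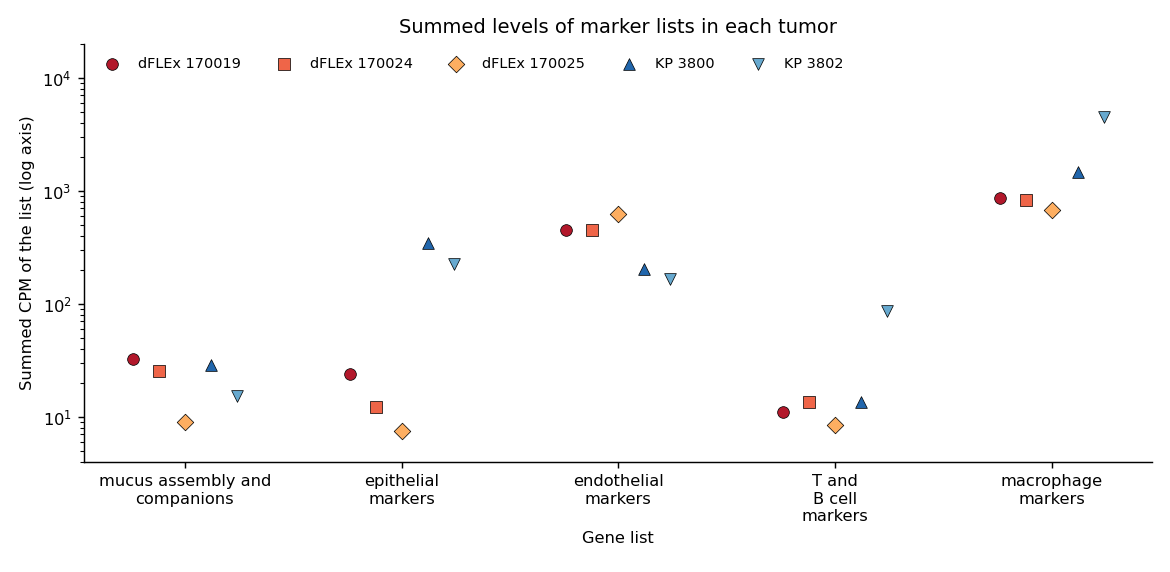
Summed CPM (log axis) of the mucus companion genes and of the markers of 4 cell types in each of the 5 tumors. Epithelial markers lay between 7.46 and 24.2 in the dFLEx tumors and at 224 and 346 in the KP tumors, and the mucus companions overlapped between the groups.

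Other genes with mucin-like domains gave a different picture from Muc5ac. Of 19 further names, 16 were found in the table, 12 were tested, and 0 passed the adjusted threshold with edgeR (1 with DESeq2). The median log2 fold change was 0.03. At an unadjusted p under 0.05 (edgeR), 1 was higher (Prg4) and 0 lower, against 5.65% and 4.93% of all genes tested. Every dFLEx tumor lay above every KP tumor for 3 of the 12 and below for 0, against 13.7% and 11.7% of all genes tested. Prg4, the lubricin of joint surfaces, was the member with the largest value, at 112, 107 and 468 CPM in the dFLEx tumors against 5.39 and 4.63 in the KP tumors (5.51, SE 1.00, adjusted p 0.0936, edgeR). Prg4 therefore also had its highest level in 170025. Cd164, a sialomucin of many cell types, had 72.5, 109 and 266 against 277 and 55.2 CPM, and Podxl, podocalyxin, had 10.97, 18.6 and 25.6 against 23.0 and 18.9 CPM. For both genes the groups overlapped. Emcn and Mcam, which endothelial cells express, had log2 fold changes of 1.19 (SE 0.66, adjusted p 0.652) and 1.40 (SE 0.68, adjusted p 0.559). The epithelial mucins of this list, Muc3a, Muc12, Muc17 and Muc21, stayed below 1 CPM in each tumor, and Muc19 reached 3.05 CPM in 3802 only.

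Muc5ac is also one of the 15 genes from which the study computed a CIC::DUX4 activity score, a list of targets that the study chose, so its count is not independent evidence of a direction. In these bulk tumors 2 of the 15 passed the adjusted threshold with edgeR, Muc5ac and Vgf (0.101% of all genes tested were called higher). With DESeq2 8 did, against 1396 of all 22335 genes it tested. Vgf, like Muc5ac, was not called without 170019 or without 170024, at log2 fold changes of 11.34 and 11.26. At an unadjusted p under 0.05, 9 were higher, against 5.65% of all genes tested, and the median log2 fold change was 3.53. Etv4, the ETS factor used as a marker of the fusion's activity, had 4211, 3732 and 2724 CPM against 117 and 180 (4.58, SE 0.64, adjusted p 0.0517, edgeR), and it was called without 3802 (4.94, adjusted p 0.0340). Etv4 was lowest in 170025, where Muc5ac was highest, so that per kb Muc5ac reached 17.5% of the Etv4 level in 170019 and 61.2% in 170025. Pole, at -0.65 (SE 0.87), was the only one of the 15 with a negative log2 fold change.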

How the data were processed

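RNA was extracted from flash-frozen tumors, and rRNA-depleted libraries were sequenced as 150-base pairs, per the labels. The authors trimmed reads with Trimmomatic 0.39, aligned them with STAR 2.7.10a to mm39 (GRCm39) with an added transgene contig, and deposited raw counts per gene from featureCounts 2.0.3, per the file headers. That step counted each mate as a read, ignored strand, and dropped reads that aligned to several places or overlapped several genes. The exonic length in the deposited table (in bases) was used for levels per kb.

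The mucin genes and all gene lists were chosen with earlier results of these data known. Symbols came from GENCODE M39 (98.7% of features). Counts were summed per tumor, filtered with filterByExpr, scaled by TMM and compared with edgeR (glmQLFit and glmQLFTest, Benjamini-Hochberg adjustment over all 24743 genes tested, threshold 0.05). SE was computed as |log2 fold change| over the root of the F statistic. The dFLEx tumor numbers are mouse numbers in the study's supplement, so these tumors came from separate mice. The sources used here do not say so of the KP tumors, and p-values measure the spread between these tumors. The procedure was run on simulated counts with known fold changes and the same spread between replicates for all genes. That run checks the code and says nothing of error rates in these tumors. Named were the 10 mucins, the genes of the lists, protein-coding genes within 500 kb of the cluster, the 5 nearest profiles to Muc5ac and to Muc1, and the transgene. Of the listed names, Muc3, Muc10 and Muc22 matched no feature. Library totals ran from 20503474 to 46302223 counts, at which 3 counts are 0.146 to 0.0648 CPM. Alternatives were other normalizations, filters and tests (DESeq2, limma-voom), libraries as replicates, 1 library per tumor, counts divided by 2, and each tumor left out. Another allele of the KP genotype and 1 listed regulator are not reported here by name.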

Additional observations from a re-analysis of the deposited data

How the results depend on the processing

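The comparison called 45 genes (25 higher and 20 lower in dFLEx). The split was 14 and 20 with library totals in place of TMM, and 17 and 33 with the upper quartile, and TMM moved the median log2 fold change by 0.30 against library totals. The count was 880 with no filter on low counts, 80 when only genes averaging 1 CPM or more were kept, 1396 with DESeq2 on tumor sums, 543 with limma-voom (tumor as random effect), 3344 with libraries as independent samples and 2476 with the duplicate number added as a replicate block. Fits on libraries without the tumor treat duplicates of 1 tumor as separate tumors. Leaving out 1 tumor gave 0 to 414 genes. It was 0 without 170019 and without 170024 (edgeR), where 1939 and 1414 genes had an unadjusted p under 0.05, 9 without 170025, 8 without 3800 and 414 without 3802.

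The number of called mucin genes, 1 as reported, was 0 with the upper quartile, 2 with no filter, with DESeq2 and with independent libraries, 1 with the replicate block, and 0 to 1 when a tumor was left out. The added gene was Muc2. The adjusted p of Muc5ac was 0.0248 (edgeR), 0.0532 with the upper quartile, 0.113 without 170019, 0.118 without 170024 and 0.0724 without 3800, and its log2 fold change ran from 10.81 to 12.01 over 16 alternatives. That of Muc2 ran from 3.27 (without 170025) to 6.54 (without 3802). The sign changed in 6 of 16 alternatives for Muc1, 2 of 15 for Muc6, 1 of 11 for Muc13 and 1 of 10 for Muc16, and in none of those run for Muc5b, Muc4 and Muc15. Over the 4 lists of glycosylation, companion and regulator genes, 1 call (Elf3) became 7 with no filter, 9 with DESeq2, 11 with independent libraries, 10 with the replicate block and 2 with limma-voom, and 0 to 2 without 1 tumor. The cause of these differences was not tested.

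With 3 tumors against 2, and with 1 library in 3802, the mucin genes other than Muc5ac, Muc2 and Muc1 rested on at most 54 counts in a tumor, which limits the precision of their values.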
